A study of Homo sapiens with 3 samples.

Results

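The mitochondrial ribosomal proteins described here are proteins of the ribosome inside mitochondria whose nuclear genes have symbols that start with MRPL or MRPS; a few others, such as DAP3, carry other symbols. Members were all genes with such a symbol followed by a number and, at most, a letter from A to C, as named by a probe set with a single gene symbol. This gave 51 genes, 31 MRPL and 20 MRPS, of the 11963 genes measured, read from 64 of 19065 single-symbol probe sets. RefSeq (assembly GRCh38.p14) lists 77 protein-coding symbols of this form, and the other 26 were not analysed here. Expression was measured on Affymetrix arrays in the human cell line HT-29, which was established from a colon adenocarcinoma. All 3 arrays came from cultures given 200 U/ml of the cytokine IFN-γ for 24 h, and the series calls them biological replicates. Untreated cultures were not analysed here, so each value is a level in treated cells and none is a response to IFN-γ. A signal from a whole culture cannot tell the number of expressing cells apart from the RNA per cell.

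The mitochondrial ribosome translates the few messages of mitochondrial DNA, all of them for membrane subunits of the oxidative phosphorylation complexes. It descends from a bacterial ribosome, has lost much of its ribosomal RNA and has gained proteins with no bacterial relative. Its proteins are made in the cytosol and imported, so that the nuclear MRPL and MRPS genes and the mitochondrial genome supply one particle between them. In colon epithelium it supports respiration, and inherited defects in several of its proteins cause combined oxidative phosphorylation deficiency.

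The names in the value table appeared displaced from their values as deposited, and all gene values below rest on a re-ordering of the names. Over 4310 genes with several probe sets, the mean log2 signals of the first pair correlated with r = 0.19 under the deposited order and r = 0.60 after re-ordering, across genes, which share the arrays and are not independent replicates. Among the mitochondrial ribosomal proteins alone this measure did not favour the re-ordering: over the 10 genes with several probe sets, r was 0.13 as deposited and -0.54 re-ordered. The share of their 64 probe sets above background differed between the orders. For this the limit described below, which was set under the re-ordered names, was held fixed. Re-ordered, 54 of them (84.4%) lay above the background limit on all arrays, against 29 (45.3%) under the deposited names and 41.2% of all re-ordered single-symbol probe sets. Displacing the re-ordered names by 1 to 5 rows either way left between 26 and 43 above it. The re-ordering moved 63 of the probe sets by 487 rows and 1 by 488. The order was inferred from these same values, so none of these figures is a separate check on it.

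Of the 51 genes, 47 were detected, among them 28 of 31 MRPL and 19 of 20 MRPS genes. Detection means that the log2 signal exceeded a background limit in limma's one-sided test with a Benjamini-Hochberg adjusted p under 0.05 over all genes. The limit was taken from 77 genes that other tissues express, at the 95th percentile of their signals, and corresponded to a signal of 194, 184 and 167 on the arrays of replicates 1, 2 and 3. Across all genes, 43.8% were detected by this rule, and of the 77 background genes 2 were (MBP and SFTPC). The median margin, which is the mean log2 signal minus the limit, was 2.98 over the 51 genes and 0.09 over all 11963. Detected members had limma adjusted p values between 3.9e-09 and 0.000215, and 45 of the 47 lay more than 4 times above the limit. The share of all detected genes that far above it was not counted. MRPL41, MRPL44, MRPL52 and MRPS18C were not detected. Margins describe distance from background for one probe set and are not used to order genes by abundance, since probe sets differ in brightness for equal amounts of RNA.

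**Figure D1:**
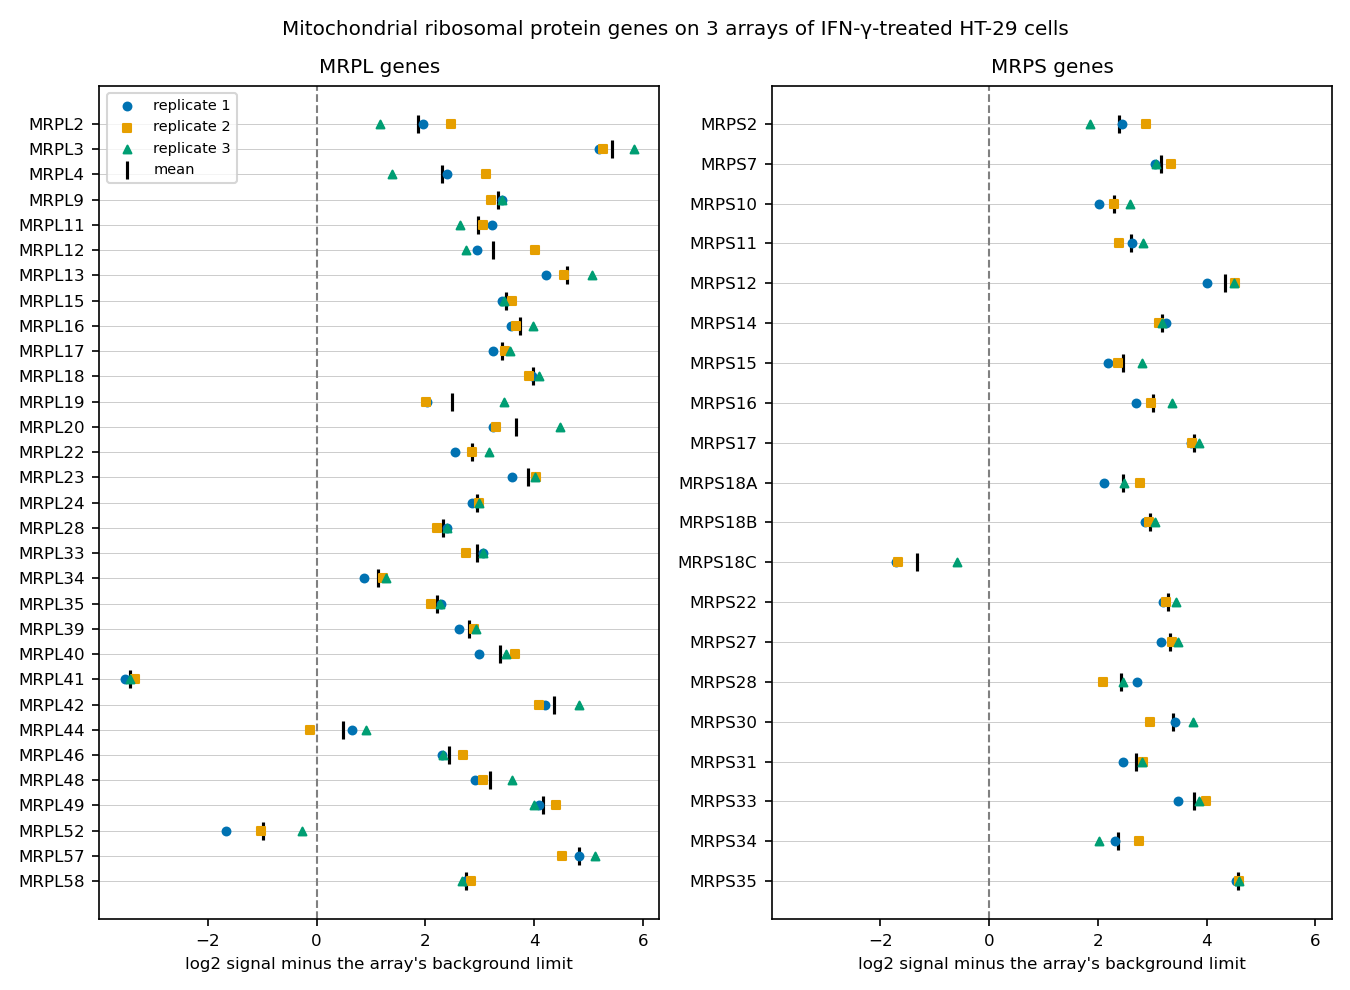
Log2 signal minus the array's background limit (horizontal axis) for the 31 MRPL and 20 MRPS genes, with 1 point per replicate array, a bar for the mean and the limit as a dashed line. The 47 detected genes lie to the right of the line on all 3 arrays, MRPL44 lies on both sides of it, and MRPL41, MRPL52 and MRPS18C lie to its left.

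The cultures carried the markers of their label. All 8 epithelial markers were detected, with KRT18 at 20577, 24816 and 30067 in replicates 1, 2 and 3. By limma 0 of 4 endothelial and 0 of 5 fibroblast markers were detected, and 0 passed in either list at an unadjusted p under 0.05. The fibroblast marker DCN, at 219, 170 and 203, was above the limit in replicates 1 and 3 (limma adjusted p = 0.642). Of 7 leukocyte markers only LYZ, which encodes lysozyme and is also made by some epithelial cells, was detected, at 6777, 6612 and 14391. These marker counts rest on the re-ordered names: with all names displaced uniformly, 4 of the 5 fibroblast, 1 of the 4 endothelial and 2 of the 7 leukocyte markers were detected by limma. The median signal of an array was 137, 144 and 141. The small number of arrays, 3 of 1 group, limits the precision of every value. Nothing beyond the series' wording shows how separate the cultures were, so p values rest only on the spread between these samples. In limma that spread is drawn partly from all genes, and the limit was treated as known.

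Promoter sequences were compared because the mitochondrial ribosome draws on many separate genes. Nuclear respiratory factor 1 (NRF1), GABP, whose alpha subunit belongs to the ETS family, and YY1 are known regulators of nuclear genes for mitochondria. RefSeq windows from 250 bases before to 50 bases after a gene's start were listed for 45 of the 51 genes. They were searched on both strands for an ETS motif, CCGGAAG, an NRF1 core, GCATGCGC, and a YY1 motif, AAGATGGCG. None of these contains another, and the ETS and YY1 motifs can share the letters AAG where they meet. The ETS motif was found for 19 of 45 genes (42.2%), against 17.8% of 9563 measured genes with a window and 25.1% of those detected. The YY1 motif was found for 8 (17.8%, against 3.95% and 5.93%) and the NRF1 core for 5 (11.1%, against 5.28% and 7.08%). In oxidative phosphorylation subunits the shares were 30.9% for the ETS motif, 14.5% for YY1 and 23.6% for the NRF1 core, and in cytosolic ribosomal proteins 36.0%, 6.0% and 6.0%. At least 1 of the 3 motifs was present for 25 genes (55.6%), compared with 34.1% of detected genes, 54.5% of oxidative phosphorylation subunits and 46.0% of cytosolic ribosomal proteins. A match is a run of letters and does not show binding, and genes with several listed starts had several windows.

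Most genes with an ETS or YY1 motif held a match close to the start, while some matches lay farther away. For 17 of the 19 genes with an ETS motif a match began between position -50 and +10, counted from the first base of the gene as +1. In 7 of the 8 genes with a YY1 motif it began after the start, between +9 and +36. Every YY1 match lay on the gene's own strand, although both strands were searched. Overlap of these matches with translation starts was not examined. The NRF1 cores began between -175 in MRPL52 and -23 in MRPS18B. Positions of matches in other genes were not examined, so none of these positions is set against a background. MRPL52 alone held all 3 motifs. The 100 bases before the start are shown for 9 genes, 5′ to 3′ on the gene's strand (RefSeq, GRCh38.p14), with matches in capitals. MRPL3, MRPL20, MRPS31, MRPS34 and MRPS18A show ETS matches near the start, MRPS22 shows a facing pair, MRPL17 and MRPS18B show NRF1 cores, and MRPL52 shows YY1 matches. The longest run of capitals in MRPL17 is a core read on both strands, and matches that reach past the start are not capitalised. These 9 were chosen after the matches were seen.
MRPL3, chr3:131502972-131503071, minus strand: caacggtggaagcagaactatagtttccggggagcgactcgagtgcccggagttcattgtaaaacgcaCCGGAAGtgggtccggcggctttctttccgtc
MRPL20, chr1:1407294-1407393, minus strand: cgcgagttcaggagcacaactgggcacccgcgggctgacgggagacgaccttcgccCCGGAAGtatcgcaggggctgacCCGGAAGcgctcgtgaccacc
MRPS31, chr13:40771191-40771290, minus strand: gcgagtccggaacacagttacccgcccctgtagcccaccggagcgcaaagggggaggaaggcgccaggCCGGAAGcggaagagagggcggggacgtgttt
MRPS34, chr16:1773135-1773234, minus strand: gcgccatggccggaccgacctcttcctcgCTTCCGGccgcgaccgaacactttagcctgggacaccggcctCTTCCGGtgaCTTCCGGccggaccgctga
MRPS18A, chr6:43687792-43687891, minus strand: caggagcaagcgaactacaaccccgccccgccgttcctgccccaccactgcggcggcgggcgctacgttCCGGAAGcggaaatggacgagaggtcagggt
MRPS22, chr3:139343894-139343993, plus strand: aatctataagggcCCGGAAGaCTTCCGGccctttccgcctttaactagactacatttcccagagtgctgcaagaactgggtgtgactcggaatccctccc
MRPL17, chr11:6683341-6683440, minus strand: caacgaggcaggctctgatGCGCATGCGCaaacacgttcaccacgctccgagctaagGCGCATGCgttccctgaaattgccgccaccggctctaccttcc
MRPS18B, chr6:30617740-30617839, plus strand: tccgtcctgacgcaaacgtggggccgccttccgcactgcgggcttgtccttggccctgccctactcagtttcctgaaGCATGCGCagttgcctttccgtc
MRPL52, chr14:22829787-22829886, plus strand: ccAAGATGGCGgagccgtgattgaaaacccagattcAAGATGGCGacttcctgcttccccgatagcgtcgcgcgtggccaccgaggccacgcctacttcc
Of the 19 genes with an ETS match 17 were detected, as were 24 of the 26 without one. Of the 5 genes with an NRF1 core, 3 were detected (MRPL17, MRPL22 and MRPS18B), as were 38 of the 40 without one. The 2 undetected genes with a core, MRPL52 and MRPS18C, also held an ETS match. For the YY1 motif, 7 of the 8 genes with it and 34 of the 37 without it were detected. A difference by motif was not tested.

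**Figure D2:**
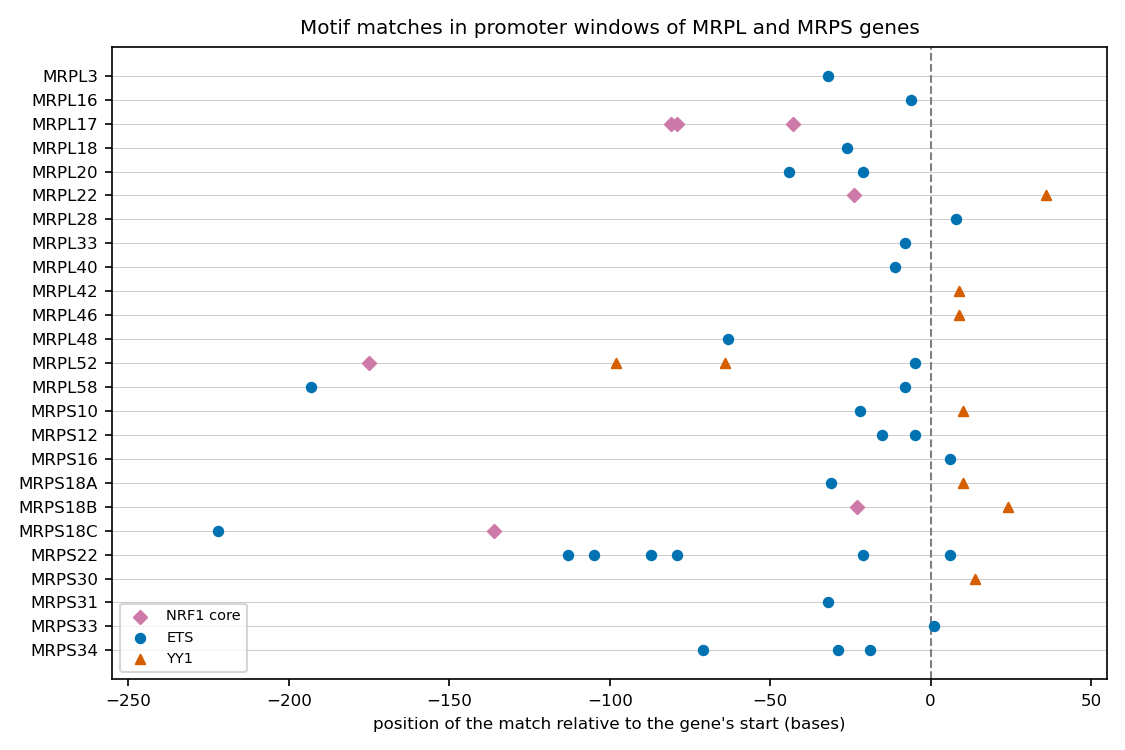
Position of each motif match relative to the gene's start (horizontal axis, bases, start at the dashed line) for the 25 genes with a match, with NRF1 cores as diamonds, ETS motifs as circles and YY1 motifs as triangles. For 17 of the 19 genes with an ETS motif a match lies between -50 and +10, and for 7 of the 8 with a YY1 motif it follows the start. Positions in other genes were not examined.

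Among proteins of the large subunit that have bacterial relatives, all 21 measured genes (20 MRPL genes and MRPS18A) were detected. MRPL3, whose bacterial counterpart reaches toward the catalytic centre, had signals of 7117, 7101 and 9580.3 in replicates 1, 2 and 3, and the same order of replicates is used throughout. Its margin of 5.43 was the largest of the 51 genes (limma adjusted p = 3.9e-09). MRPL2, which belongs to the same core of the subunit, had 758, 1018 and 374, with replicate 3 lowest. MRPL15 had 2055, 2239.8 and 1821 and MRPL13 had 3617, 4341 and 5595. MRPL13 was highest in replicate 3 and MRPL15 lowest there, so these proteins did not share 1 order of the arrays.

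The stalk and its base recruit the translation factors. MRPL12, the stalk protein related to bacterial L7/L12, had signals of 1496, 3002 and 1128, and the value in replicate 2 was 2.66 times that in replicate 3. MRPL11, at the base of the stalk, had 1815, 1538 and 1044, again lowest in replicate 3. Both were above the limit on every array, with margins of 3.24 and 2.98 (limma adjusted p = 2.3e-07 and 4.1e-08).

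The walls and mouth of the exit tunnel, through which the new protein leaves, are formed in part by MRPL4, MRPL22, MRPL23 and MRPL24. MRPL4 had 1027, 1607 and 439, the widest spread of the detected genes (SD 0.95 log2 units), and replicate 3 was its lowest array. MRPL22 had 1127, 1333 and 1501, highest in replicate 3. MRPL23 had 2354, 3029 and 2717. MRPL24 had 1406, 1464 and 1334 and differed little between arrays (SD 0.067). Thus 1 of these 4 genes varied more than 2 times between arrays while the others did not.

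Proteins that shape the rest of the large subunit and bind its ribosomal RNA followed. MRPL16 had 2309, 2350.5 and 2650.3, MRPL17 had 1829.9, 2039 and 1967 and MRPL18 had 3043, 2775 and 2841. MRPL18 belongs to a family that in bacteria holds the small ribosomal RNA of the central protuberance, and its SD was 0.069. MRPL9, MRPL28 and MRPL33, all with bacterial namesakes, had 2052, 1697 and 1771, then 1019.8, 854 and 878, then 1609.5, 1242 and 1394. In each of these last 3 genes replicate 1 was highest and replicate 2 lowest. MRPL19 had 796, 743 and 1825 and MRPL20 had 1847, 1818 and 3709.8, and in both genes replicate 3 stood above the other two arrays. MRPL20, whose promoter with a pair of ETS matches is shown above, had a margin of 3.67 on this probe set. MRPL35 had 947, 790.4 and 807. MRPL34 had 356, 431 and 407, and its margin of 1.13 was the smallest of a detected member (limma adjusted p = 0.000215). MRPL34 was not detected when the limit was set at the 99th percentile of the background genes (limma adjusted p = 0.395).

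Of the 12 large subunit proteins without a relative in the bacterial ribosome, 9 were detected. MRPL57, a small protein of the mitochondrial particle, had 5506, 4224 and 5832 and a margin of 4.82 (limma adjusted p = 3.9e-09). MRPL42 had 3573, 3154 and 4745 and MRPL49 had 3328, 3882 and 2677. MRPL42 was highest in replicate 3, whereas MRPL49 was lowest there. MRPL40, MRPL46 and MRPL48, which belong to the central protuberance at the top of the subunit, had 1540.2, 2306 and 1878, then 962, 1190.4 and 842, then 1468, 1545 and 2011. Replicate 2 was the highest array for MRPL40 and MRPL46 and replicate 3 for MRPL48. MRPL39 had 1189, 1364 and 1273. MRPL58, a peptidyl-tRNA hydrolase that is also built into the ribosome, had 1290.1, 1323 and 1075 (SD 0.16). MRPS30, named for the small subunit although structures place it in the large, had 2065, 1437 and 2245, lowest in replicate 2.

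The 3 large subunit genes that were not detected differed in how far they lay from the limit. MRPL44, a protein with a ribonuclease III-like fold in which inherited variants cause cardiomyopathy, had 305, 170.1 and 314. Its signal was above the limit in replicates 1 and 3 and below it in replicate 2, with a margin of 0.48 (limma adjusted p = 0.0909). Without replicate 2 the margin was 0.78 and MRPL44 was detected (limma adjusted p = 0.00588). MRPL44 was read from a probe set whose name ends in _x_at, which marks designs that can cross-hybridise. MRPL52 had 61.3, 90.6 and 139, below the limit on all arrays, with a margin of -0.99. MRPL41 had 16.8, 18.2 and 15.5, also from an _x_at probe set, with a margin of -3.44. Each of these genes had a single probe set, so a dim probe set and a low transcript level cannot be told apart.

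In the small subunit, 11 of 12 genes with bacterial relatives and all 6 without were detected. MRPS12, related to the bacterial decoding-site protein S12, had 3111, 4237 and 3814 with a margin of 4.35 (limma adjusted p = 4.6e-09). MRPS11, at the platform near the messenger exit, had 1199.7, 965 and 1187, and MRPS7, in the head, had 1608, 1868 and 1403. MRPS10 and MRPS14, which also belong to the head, had 792, 902 and 1002 and 1861, 1612 and 1508. MRPS10 was highest in replicate 3 and MRPS14 lowest there. MRPS2 had 1057, 1354 and 603, with replicate 3 at the bottom, and MRPS16 had 1267, 1457 and 1731, with replicate 3 at the top. MRPS16, MRPS2, MRPS7 and MRPS14 have all been linked to combined oxidative phosphorylation deficiency, and all 4 were detected. MRPS15 had 880.2, 951 and 1175 and MRPS17 had 2538, 2438 and 2420.2. MRPS17 differed little between arrays (SD 0.037). MRPS28, another disease gene of the family, had 1280.3, 790.0 and 916, highest in replicate 1.

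The small subunit proteins without a relative in the bacterial ribosome were MRPS22, MRPS27, MRPS31, MRPS33, MRPS34 and MRPS35. MRPS35 had 4539, 4482 and 4065, with a margin of 4.59 (limma adjusted p = 3.9e-09). MRPS27, a pentatricopeptide repeat protein, had 1732, 1905 and 1865, and MRPS31 had 1064, 1318 and 1175. Their SDs were 0.072 and 0.15 log2 units. MRPS33 had 2167, 2914 and 2416. MRPS34 had 968, 1252 and 679, lowest in replicate 3, and its promoter held 3 ETS matches. MRPS22, mutated in a severe neonatal form of the deficiency, had 1780.0, 1753 and 1815, an SD of 0.025. MRPS22 was read from an _x_at probe set.

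The family of 3 paralogs related to bacterial S18 gave 2 detected genes and 1 that was not. MRPS18B had 1413, 1421 and 1384, the smallest spread of the detected genes (SD 0.020), and MRPS18A, which structures place in the large subunit, had 839, 1262 and 929. A further probe set of each gene was also above the limit on all arrays, with a margin of 2.67 for MRPS18B and 2.22 for MRPS18A. MRPS18C, the paralog at the position of bacterial S18 itself, had 59.4, 57.9 and 111 on its only probe set, below the limit on every array (margin -1.32). These probe sets differ in sequence, so the levels of the paralogs were not compared.

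Of the 10 genes with several probe sets, 5 had them on both sides of the limit (among all 4310 such genes the share was 34.1%). The second probe set of MRPL20 had 6.49, 8.88 and 8.10, below the limit on every array. For MRPS12, 2 of 4 probe sets exceeded the limit on every array, and the others had 109, 169.6 and 106 and 90.8, 77.6 and 133. MRPS11 had a dim probe set at 30.3, 65.2 and 27.8 and MRPS14 had one at 111, 74.1 and 150.5. MRPL57 had 2 of 3 above the limit, and the last one, at 189, 154 and 199.9, was above it in replicate 3 alone. MRPL9, MRPS18A, MRPS18B, MRPS30 and MRPS31 had both probe sets over the limit on every array. Probe sets differ in brightness, so the distance between those of one gene was not read as a level. Taking the median over probe sets left MRPL20 just below the limit (margin -0.061) and detected MRPL44, for a count of 47 again. A count without probe sets ending in _s_at or _x_at was 21 of 23 genes, since 28 of the 51 genes had no other kind, and MRPL20 and MRPS14 were the 2 below the limit.

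**Figure D3:**
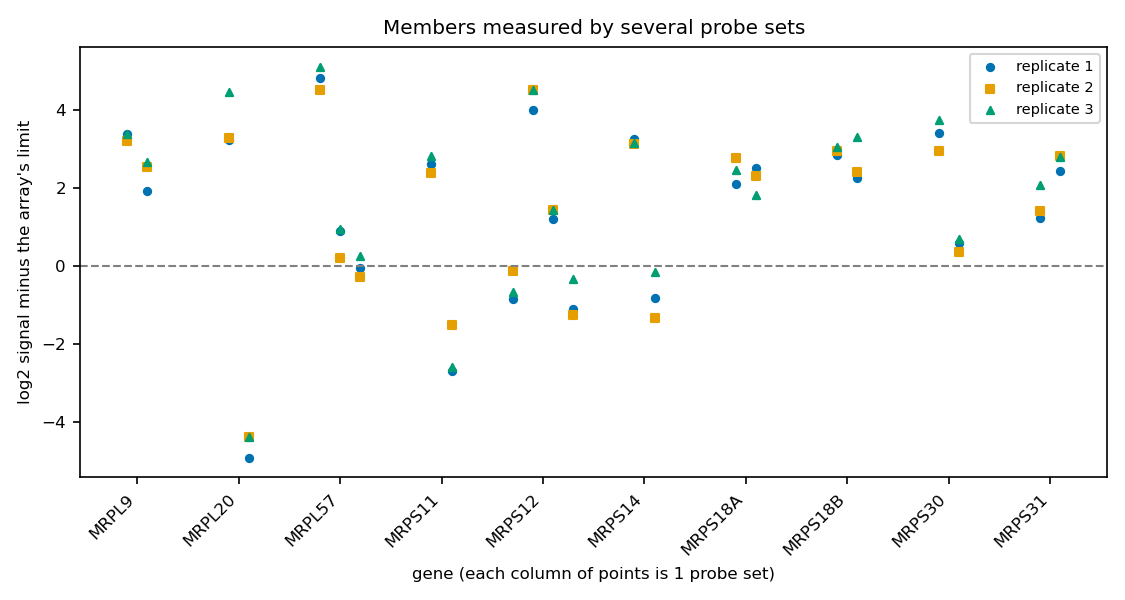
Log2 signal minus the array's background limit (vertical axis) for each probe set of the 10 genes with several, with 1 point per replicate array and the limit as a dashed line. MRPL20, MRPS11, MRPS12, MRPS14 and MRPL57 have probe sets on both sides of the line, while those of the other 5 genes lie above it on all arrays.

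The median spread of the detected genes between cultures was below that of all detected genes. Their median SD over the 3 arrays was 0.21 log2 units, with quartiles of 0.14 and 0.30, compared with 0.29 over all 5237 detected genes. A low spread was not particular to them. The median SD was 0.24 in detected oxidative phosphorylation subunits, 0.17 in mitochondrial translation factors and 0.22 in mitochondrial tRNA synthetases. It was 0.29 in cytosolic ribosomal proteins, 0.34 in assembly factors and 0.35 in genes of mitochondrial DNA expression. An SD under 0.2 was found in 22 of the 47 (46.8%), against 29.0% of all detected genes. The highest array was less than 2 times the lowest in 41 of 47 genes (87.2%), against 85.0% of all detected genes. Replicate 3 was the lowest array for 16 of the 47 (34.0%), against 45.1% of all detected genes. This share was 24.2% in oxidative phosphorylation subunits, 3.8% in cytosolic ribosomal proteins and 69.2% in assembly factors. Replicate 2 was the highest array for 22 of the 47, against 1946 of all 5237 detected genes. The median deviation from the gene's mean was -0.01, 0.02 and -0.01 in replicates 1, 2 and 3. Between replicates 2 and 3 the median absolute difference was 0.27 log2 units for these genes and 0.44 for all detected genes. All of these are descriptions, since the arrays are 1 group.

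An SD over 0.5 was found in 6 of the 47 genes (12.8%), against 17.1% of all detected genes. In 5 of the 6, replicate 3 was the array farthest from the gene's mean. How often this held among all detected genes, or among those with such an SD, was not counted, so it has no background share. Replicate 3 was the lowest array in 4 of the 6 and the highest in 2. Over all detected genes it was the lowest array in 45.1% and the highest in 33.7%. MRPL4 (SD 0.95), MRPL2 (0.74), MRPL12 (0.73) and MRPS2 (0.60) were highest in replicate 2 and lowest in replicate 3. MRPL19 (0.72) and MRPL20 (0.59) were highest in replicate 3 and lowest in replicate 2. In MRPL12 the farthest array from the mean was replicate 2. The ratio of highest to lowest array in these 6 genes ran from 2.04 in MRPL20 to 3.66 in MRPL4. The order with replicate 2 highest and replicate 3 lowest was found in 12 of the 47 detected members (25.5%) and in 28.6% of all detected genes.

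**Figure D4:**
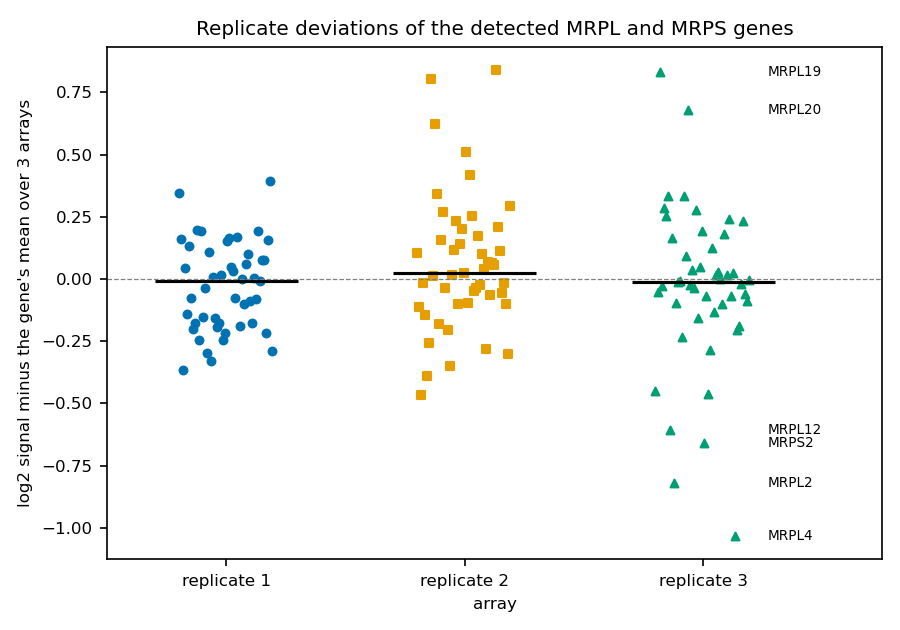
Log2 signal minus the gene's mean over the 3 arrays (vertical axis) for the 47 detected genes, by replicate array (horizontal axis), with the median as a bar. The medians lie at -0.01, 0.02 and -0.01, and the 6 genes with an SD over 0.5 are named beside replicate 3.

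Other genes of mitochondrial gene expression were read against the same limit, and several of these lists lay closer to it. With the limit at the 99th percentile of the background genes, the detected assembly factors went from 13 to 7 of 15, the tRNA synthetases from 9 to 4 of 10 and the genes of mitochondrial DNA expression from 12 to 6 of 14, while 46 of the 51 MRPL and MRPS genes were detected. Among the ribosome's proteins with other symbols, 3 of 3 were detected. DAP3, a GTP-binding protein of the small subunit, had 3089, 2294 and 3563, PTCD3, a pentatricopeptide repeat protein of the small subunit, had 1345, 1222 and 1438, and GADD45GIP1, a large subunit protein, had 229, 512 and 305. Of 15 assembly factors 13 were detected. NGRN, which takes part in the handling of the large ribosomal RNA, had 3969.9, 3327 and 4112, and ERAL1, the chaperone of the small subunit's RNA, had 524, 729 and 353. The methyltransferase MRM1, at 251, 368 and 183, was not detected (limma adjusted p = 0.0687), nor was MTERF4, at 102, 196 and 140.5.

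Translation factors were detected for 7 of 11 genes. TUFM, the elongation factor that carries tRNA to the ribosome, had 4151, 7348 and 2474. The RNA-binding protein SLIRP had 6261, 5209 and 5225 and its partner LRPPRC had 2818, 2361 and 2973. The elongation factor GFM1, at 21.1, 57.3 and 62.6, and the release factor family member MTRF1L, at 63.8, 44.5 and 20.1, were not detected, and neither were MTRF1 and RMND1. Of 10 mitochondrial tRNA synthetases 9 were detected, with IARS2 at 1713, 1711 and 1982, and the exception was RARS2 at 6.82, 17.1 and 6.74. Genes of mitochondrial DNA expression were detected for 12 of 14. The single-stranded DNA-binding protein SSBP1 had 5682, 5367 and 8162. The polymerase POLRMT, which MRPL12 is known to bind, had 352, 545 and 219, and the packaging factor TFAM had 1283, 823 and 1562. PRORP, a ribonuclease subunit that trims tRNA, was not detected at 24.3, 97.2 and 11.6, and neither was MTERF1.

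The regulators whose motifs were searched differed. YY1 had 3137, 2329 and 4438, and GABPB1, the beta subunit of GABP, had 1241, 914 and 807. Its DNA-binding partner GABPA was not detected at 182, 92.6 and 236, and NRF1 was not detected at 236, 219 and 216 although it was above the limit on all 3 arrays (limma adjusted p = 0.208). The coactivator PPARGC1A was not detected at 22.3, 4.77 and 39.9, and MYC had 3609, 4198 and 3859. In all, 5 of 8 regulators were detected.

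No test was made between these lists, and the larger classes are given side by side. Subunits of oxidative phosphorylation gave 62 of 65 (95.4%) with a median margin of 4.25, and cytosolic ribosomal proteins gave 53 of 58 (91.4%) with 6.42, next to 92.2% and 2.98 for the mitochondrial ribosomal proteins. In the first of these, the cytochrome oxidase subunit COX8A had 9768, 11826 and 8603, and the muscle forms COX7A1 (margin -4.09) and COX6A2 (at 162, 260.3 and 200.0) were not detected. ATP5MC2P1 (margin -0.74) was not detected either. The cytosolic genes not detected were RPL3L, RPL10L, RPL39L, RPS4Y1 and RPLP2. Both lists were taken by symbol alone, and all genes with a matching symbol count in the shares, so these were not read as a difference or likeness between the classes.

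**Figure D5:**
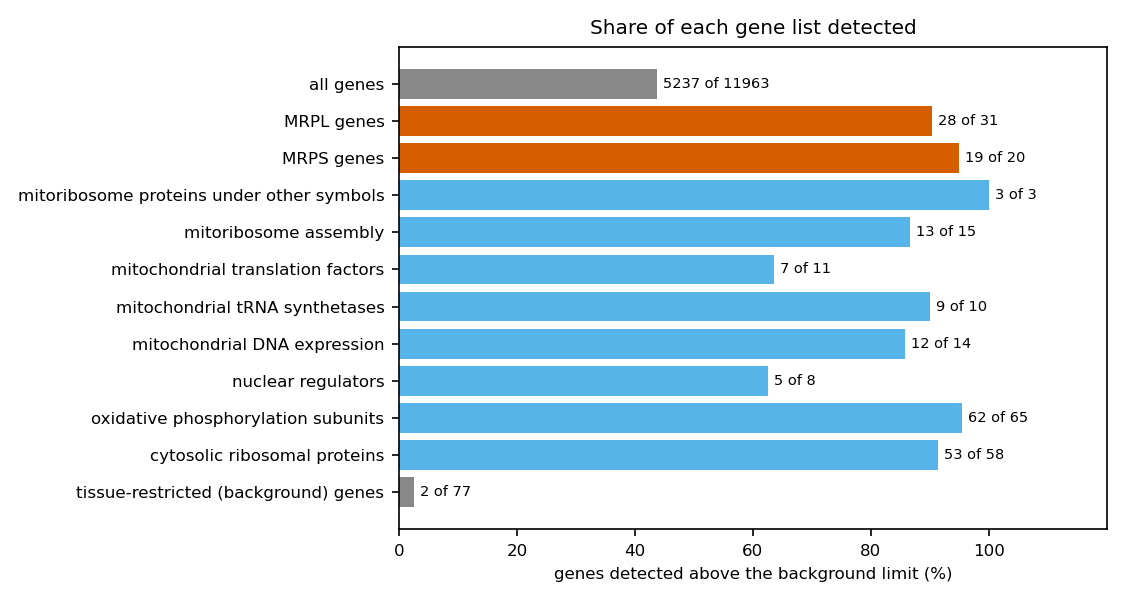
Percent of each gene list detected above the background limit (horizontal axis, bars from 0), with the number detected of the number measured. MRPL and MRPS genes stood at 28 of 31 and 19 of 20, oxidative phosphorylation subunits at 62 of 65, and all genes at 5237 of 11963.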

How the data were processed

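Values came from 3 arrays of 1 group, treated HT-29 cultures. The authors deposited 1 column of linear intensity for each array. The submitters' processing notes name MAS5 and Affymetrix Expression Console 1.1; the scaling target, background step and presence calls are not given in the sources used here. The trimmed mean of each array was 500.3, and 6 of 22283 entries were empty.

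Names were re-ordered so that values in file order fell to 15 unnamed entries, the 100 lowest-numbered probe sets of the main series, 493 with shorter numbers, 21622 others and 47 unnamed entries. The order was inferred from the values. Symbols came from GEO's platform annotation, and each gene took the brightest (by mean log2 signal) of the probe sets that carry its symbol alone.

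Log2 signals minus each array's limit were fitted with limma 3.58.1 in R 4.3.3 (intercept, variance trend, one-sided, Benjamini-Hochberg over 11963 genes, adjusted p under 0.05), after the fit had been tested on simulated data. Highest signals per gene favour detection, and microarray signals include cross-hybridisation. Motifs were searched in Python 3.11.15. The members and lists were chosen with earlier results of these data known, and the assignment to subunits and bacterial relatives was made after the values were seen. All members were named. Of other lists, the genes with the largest and smallest margin and up to 2 undetected ones were named. VIL1, the undetected marker genes other than DCN, and the detected cytosolic genes were left to counts. ERAL1, TUFM, LRPPRC, POLRMT, TFAM, YY1, GABPB1, MTRF1, RMND1, MTERF1 and COX6A2 were added after their values were seen. So were DCN, ATP5MC2P1 and the undetected cytosolic genes. Alternatives covered the name order, limit, probe set rule, pseudocount, normalization, filter, variance trend and each replicate.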

Additional observations from a re-analysis of the deposited data

How the results depend on the processing

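The order of the names decided the counts. With the names as deposited, 0 of 51 members were detected by limma (0 also at an unadjusted p under 0.05), against 377 of 11963 genes, with a median margin of -4.20. The background genes then set limits of 3793, 4087 and 3388. Re-ordered names displaced by -1 and by 1 row, chosen after seeing the data, gave 7 and 4 detected members, median margins of -1.20 and -1.01, and 0 and 1 members lowest in replicate 3 (0 as deposited). Their limits were also set anew, at 1275, 1250 and 1453 and at 942, 836 and 774, so these counts mix changed names with a changed limit. With the main limit held fixed, 41 and 40 of the 64 member probe sets lay above it on all arrays. As deposited 29 did, and re-ordered 54 did. A uniform displacement by 487 rows, the one with the highest r between probe sets of one gene, gave 48 members. That r was 0.50, against 0.19 as deposited and 0.60 re-ordered. The re-ordering itself moved 63 of the 64 member probe sets by 487 rows. Member values were thus nearly the same in both orders, and the count of 48 is not separate support for the re-ordering.

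Under the re-ordered names the count lay between 46 and 48 in every other setting that kept all members or filtered low values. The median margin of 2.98 became 3.35 and 2.15 with the limit at the 90th and 99th percentile and 3.34 with it at the array median. The 99th percentile lowered the count over all genes from 5237 to 3801, and the detected assembly factors to 7 of 15, tRNA synthetases to 4 of 10 and genes of mitochondrial DNA expression to 6 of 14. Without suffixed probe sets 23 members remained measured, since 28 had no other kind. Of these 23, 21 were detected and 9 were lowest in replicate 3, and over all genes 2946 of 8369 were detected. MRPL20 and MRPS14 fell to margins of -4.47 and -0.67. MRPL20 had -0.061 with the median over probe sets. MRPL44 had -0.34 at the 99th percentile and was detected by limma under 6 settings with the re-ordered names, with adjusted p from 0.00588 to 0.0302. Without MBP and SFTPC, a setting chosen after seeing the data, 48 members were detected. Leaving out 1 array gave 47 to 48 members, a median margin of 2.92 to 3.01 and a median SD of 0.15 to 0.19. No paired analysis was possible because there was 1 group. The signals of 3 arrays limit what can be said near the background limit, where MRPL44 and MRPL34 lay.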
